A study of Mus musculus with 12 samples.

Results

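In LPS-matured dendritic cells (DCs) grown from bone marrow, 2 array probes met a rule for low signal in cells of untreated old mice only. They read H1f5, the gene of linker histone H1.5, and Cd3g, the gene of the gamma chain of CD3. The members were chosen on the deposited table of log2 signals, which holds 46302 probes. A member had to be lower in Old than in Young, Young-Abx and Old-LP by at least 0.7 log2 on each of the replicate letters A, B and C of the labels, which makes 9 differences, with the mean of Young-Abx within 0.5 of the mean of Young. Ccl1 was left out by name. The rule allowed up to 300 probes and found 2, or 2 of the 20216 gene symbols in the table. Cd3g met the window only with letter C included, where Young-Abx stood above Young by 0.27. On letters A and B Young-Abx stood below Young by 0.47 and 0.57. Because the values of Old against the other groups chose these probes, their distances from Old are given as a description with no test.

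The series holds 12 one-colour Agilent mouse arrays, with 3 arrays in each of 4 groups and RNA of a pool of 3 female mice on each array. All cells were cultured with GM-CSF and IL-4 and then given LPS, a component of bacterial membranes that drives DC maturation, at 1 µg/ml for 24 h. Young DCs came from mice labelled 2 months old and Old DCs from mice labelled 24 months old, both without treatment. Young-Abx DCs came from mice of 2 months that drank ampicillin, neomycin, metronidazole and vancomycin for 21 days. Old-LP DCs came from mice of 24 months that received Lactobacillus plantarum by gavage for 21 days. No unstimulated cells were analysed here. The loosely adherent cells of the culture were used, so other blood cell types may be present in the RNA.

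Letters A and B of every group lay on 1 slide, letter C of Young and Young-Abx on another, and letter C of Old and Old-LP on the last of the 3 slides. The C arrays were dim, with 37.3 to 46% of their spots well above background, against 61.2 to 66.4% for A and B. Over 18663 probes well above background on all arrays, the median absolute difference between A and B of a group was 0.092 to 0.135 log2, and between C and either of them 0.655 to 0.876. The study's methods speak of independent sets of pooled mice, while the labels do not say that A and B came from separate pools or cultures. If they did not, p-values measure only the spread between these arrays, which may be technical. Young-Abx and Old arrays of letter A differed by a median of 0.104, which lies within the range between A and B of a group. All 9 dendritic cell markers were well above background on at least 1 array of every group, with a summed log2 signal of 18.2 to 18.73 over all arrays.

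Linker histones bind DNA where it enters and leaves the nucleosome and help to compact chromatin. H1.5 belongs to the replication-dependent histones, whose transcripts are made mainly while DNA is copied and mostly end in a stem-loop in place of a poly(A) tail. The labelling kit primes from poly(A), so the array reads such transcripts through whatever polyadenylated form exists, and its effect on the values was not tested. CD3 gamma is a signalling chain of the T cell receptor complex, together with CD3 delta (Cd3d), CD3 epsilon (Cd3e) and the zeta chain (Cd247). Its transcript is a marker of T cells and is not a usual product of DCs.

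The 250 bases before each start site are shown because the 2 members were chosen for the same order of groups and code for unrelated proteins. The sequences are from RefSeq on build GRCm38.p6, minus strand for both genes. H1f5 lies at chr13:21780626-21780875 and Cd3g at chr9:44980432-44980681. Capitals mark matches on either strand to 5 short motifs: the TATA box (TATAAA), the CCAAT box, the H1 box of linker histone promoters (AAACACA), a form of the GATA factor site (AGATAA) and a form of the RUNX factor site (TGTGGT).
H1f5: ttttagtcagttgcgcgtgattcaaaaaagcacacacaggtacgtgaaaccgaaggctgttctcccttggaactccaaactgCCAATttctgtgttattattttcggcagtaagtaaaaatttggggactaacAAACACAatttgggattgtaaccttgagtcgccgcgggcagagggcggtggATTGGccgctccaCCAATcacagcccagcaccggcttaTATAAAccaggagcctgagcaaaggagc
Cd3g: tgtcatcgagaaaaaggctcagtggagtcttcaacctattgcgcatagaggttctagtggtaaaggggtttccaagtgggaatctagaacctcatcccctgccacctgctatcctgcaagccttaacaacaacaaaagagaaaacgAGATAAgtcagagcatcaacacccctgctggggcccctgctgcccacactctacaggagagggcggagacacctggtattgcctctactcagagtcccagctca
The H1f5 window held TATAAA 28 to 23 bases before the start, as do 12.4% of 32851 promoter windows of this length at some position. It held the H1 box 117 to 111 bases before the start, which 6.25% of all windows hold. It held the CCAAT box 3 times, of which 1 lay on the opposite strand, where 33.8% of windows hold at least 1, and none of these matches overlapped. The Cd3g window held AGATAA 104 to 99 bases before the start, which 9.99% of windows hold, and no match to the other 4 motifs. Neither window held TGTGGT, which 14.0% of windows hold. The members shared no motif of these 5, and 48.4% of the bases of the H1f5 window and 51.6% of the Cd3g window were G or C, against a median of 52.4% over all windows. A match is a description and says nothing of binding.

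H1f5 (NM_020034) was read by 1 probe with 1 spot, which was well above background on all 12 arrays and saturated or marked as an outlier on none. On the deposited log2 scale it stood at 9.72, 9.48 and 9.01 on letters A, B and C of Young. It stood at 9.71, 9.53 and 8.68 in Young-Abx. In Old it stood at 8.86, 8.69 and 7.83, the lowest value on every letter. In Old-LP it stood at 10.11, 9.87 and 9.74, the highest value on every letter. Young exceeded Old by 0.94 ± 0.21 log2 (SD over 3 letters), which is 1.92 times the signal. The distance from Old was 0.84 ± 0.01 for Young-Abx and 1.45 ± 0.40 for Old-LP, or 1.8 and 2.73 times the signal. Young-Abx and Young differed by -0.10 in their means, and the smallest of the 9 differences was 0.79. Over all arrays the Old values lay below every Young and every Old-LP array and overlapped with Young-Abx, where letter C at 8.68 was below Old letters A and B. H1f5 was thus not among the 1.33% of all probes with every Old array below every array of the other groups.

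Cd3g (NM_009850) was also read by 1 probe with 1 spot, well above background on 11 of 12 arrays. The exception was Old letter C, so Old was measured on 2 of its 3 arrays and the value of letter C is near background. The deposited log2 signal was 10.71, 10.80 and 8.91 on letters A, B and C of Young. It was 10.24, 10.23 and 9.18 in Young-Abx. It was 9.51, 9.36 and 6.46 in Old, the lowest on every letter. It was 10.43, 10.60 and 9.72 in Old-LP, between Young and Young-Abx on letters A and B and above both on letter C. The distance from Old was 1.70 ± 0.66 for Young, 1.44 ± 1.11 for Young-Abx and 1.81 ± 1.27 for Old-LP (SD over 3 letters). Letter C carried much of these means: on letters A and B alone the distances were 1.32, 0.80 and 1.08, or 2.5, 1.74 and 2.11 times the signal. Across letters Old overlapped with Young and Young-Abx, since their C arrays stood below Old letters A and B, and did not overlap with Old-LP. Cd3g too was not among the 1.33% of all probes with every Old array below every array of the other groups. In RNA of a whole culture, fewer cells of a type and less RNA per cell cannot be told apart.

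**Figure D1:**
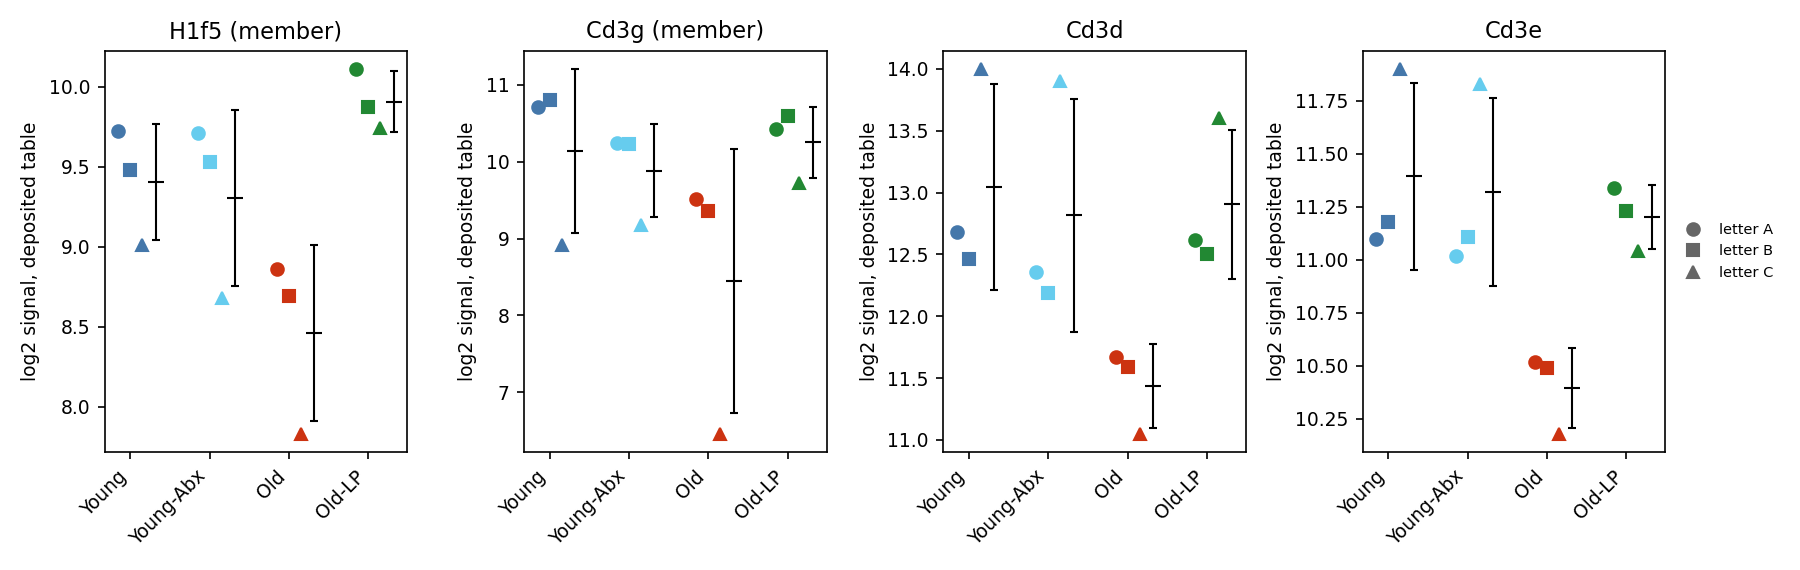
Log2 signal of the deposited table for both members and for the CD3 genes Cd3d and Cd3e, each at its brightest probe, by group (x axis). Each symbol is 1 array, its shape gives the letter, and the black bars show the mean and SD over 3 arrays. Old was lowest on every letter in all 4 panels, and in Cd3d and Cd3e all Old arrays lay below all other arrays.

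The 2 probes lay far apart on the array, in rows 64 and 365. Their signals lay at the 60th to 80.9th percentile of the table for H1f5, and for Cd3g at the 71.2th to 85.5th on 11 arrays and at the 35.6th on Old letter C. Over the 12 arrays, with the mean of each letter removed, their values had a Pearson's r of 0.87, given as a description because the rule chose both for the same order of groups. By the same measure over 25576 probes that were bright in all 3 arrays of some group, the genes with values most like H1f5 were Cenpw (r = 0.955), Rgs16 (0.948) and Glipr2 (0.947). Those most like Cd3g were Gpr34 (0.99), Kpna4 (0.988) and Fhl2 (0.984). Cenpw is a centromere protein and Rgs16 a regulator of G protein signalling. These points share arrays and letters, and this measure was chosen after values were seen. Every r with Cd3g takes in Old letter C, where Cd3g was near background. It lay 2.45 to 3.26 below the other groups there, against 0.74 to 1.44 on letters A and B. How far this array carries these r was not tested.

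In all, 18 probes were lower in Old by 0.7 in all 9 differences, of which 1 was Ccl1. Another 15 fell outside the window because Young-Abx stood below Young by more than 0.5, in all 15 cases. The nearest of these were Sucnr1, a succinate receptor, with a mean Young-Abx minus Young of -0.503, and Ccna2, a cyclin of S phase and mitosis, with -0.573. They also included the granzyme genes Gzmb (-0.859) and Gzmc (-0.688), whose products are proteases of cytotoxic lymphocytes, and the growth factor gene Csf2 (-0.758). No probe was higher in Old than in the other groups by 0.7 on every letter. No probe stood apart in this way, high or low, in Young-Abx or Old-LP, and none was high in Young alone. In Young, 8 probes were low alone.

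Just inside the 0.7 limit lay the members themselves, Cd3g with a smallest difference of 0.74 and H1f5 with 0.79. Just outside it and within the window lay Cd3d with 0.64 and Cd8a, which codes for a chain of the CD8 coreceptor, with 0.63. In all, 14 probes lay between 0.5 and the limit within the window, 9 of them with a symbol, which gave 8 genes. Of these 8 genes, 5 are T cell or cytotoxic lymphocyte genes (Cd3d, Cd8a, Xcl1, Gzma and Trat1) and 2 act in mitosis (Ect2 and Nusap1). The last was Rgs16. The T cell and cytotoxic lists behind this count were made after values were seen. Low signal in Old chose these 8 genes, so the counts are a description. The other 5 probes are named by a transcript accession only.

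**Figure D2:**
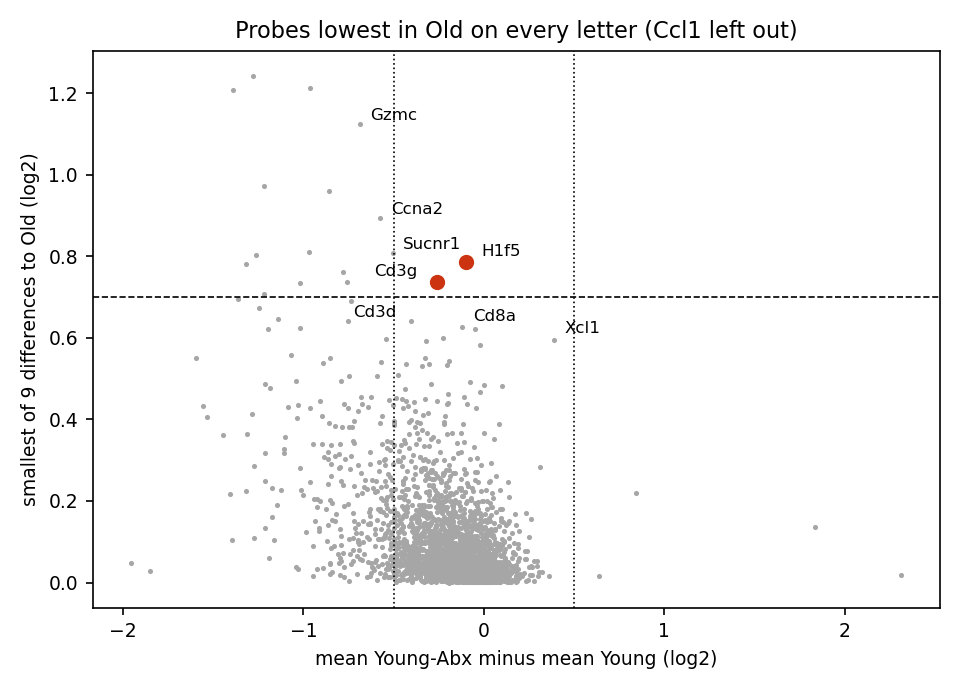
Each point is 1 probe that was lowest in Old on every letter. The x axis gives the mean of Young-Abx minus the mean of Young and the y axis the smallest of the 9 differences to Old, both in log2. Both members (red) lie above the dashed line at 0.7 and between the dotted lines at -0.5 and 0.5, where no other probe lies.

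Applied to 2 letters at a time, the rule chose H1f5 on each pair. It chose Cd3g on the pairs with C and not on A and B, where Young-Abx stood below Young by 0.47 and 0.57. All letters had a part in choosing the members, so no letter is a test of them.

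Old-LP against the young groups was not used by the rule, and was tested with limma over 56605 probes on quantile normalized log2 of the processed intensity. H1f5 stood above Young by 0.54 (SE 0.48, 95% interval -0.54 to 1.62, n = 3 arrays a group, limma adjusted p = 1.0). It stood above Young-Abx by 0.58 (SE 0.48, interval -0.50 to 1.65, limma adjusted p = 1.0). The difference from Young was positive on each letter, at 0.39, 0.40 and 0.85, and so was that from Young-Abx, at 0.39, 0.40 and 0.93. Cd3g differed from Young by 0.21 (SE 1.1, interval -2.23 to 2.65, limma adjusted p = 1.0). Against Young its letters differed in sign, with -0.05, -0.10 and 0.78. From Young-Abx it differed by 0.53 (SE 1.1, interval -1.91 to 2.97, limma adjusted p = 1.0), with 0.47, 0.44 and 0.67 on the letters. None of these 4 differences was larger than the spread between arrays by this test, and all 4 intervals include 0. The fit did not model the letter, so this spread takes in differences between letters. The 4 intervals are those of this fit. With the letter as a replicate block H1f5 stood above Young by 0.54 (SE 0.19) and above Young-Abx by 0.58 (SE 0.19). It was called in neither contrast. These tests do not show that Old-LP and the young groups are alike.

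Neither member passed the thresholds (adjusted p of at most 0.05 and a log2 difference of at least 0.5) in Old-LP against Young, where 0.0% of all probes were called, nor in Old-LP against Young-Abx, where 0.163% were. In the fit without the letter, 0 of 2 members passed in each at an unadjusted limma p of at most 0.05. The same log2 threshold applied. Of all 56605 probes, 632 passed against Young and 1869 against Young-Abx. Without Young letter C, Old-LP minus Young was -0.43 for Cd3g and 0.21 for H1f5. With the letters A and B of slide 1 only, added after the data were seen, it was -0.07 (SE 0.09) and 0.39 (SE 0.12). On slide 1 Old-LP exceeded Young-Abx by 0.46 (SE 0.09, limma adjusted p = 0.0532) for Cd3g and by 0.40 (SE 0.12, limma adjusted p = 0.17) for H1f5, with n = 2 arrays a group. These p-values rest on the spread between letters A and B, which may be technical. That fit called 2722 of 56605 probes in this contrast, against 92 with all arrays. The SE of Cd3g over all arrays takes in Old letter C, an array of neither group that was near background. Without that array the SE was 0.58 and both estimates for Cd3g stayed at 0.21 and 0.53.

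**Figure D3:**
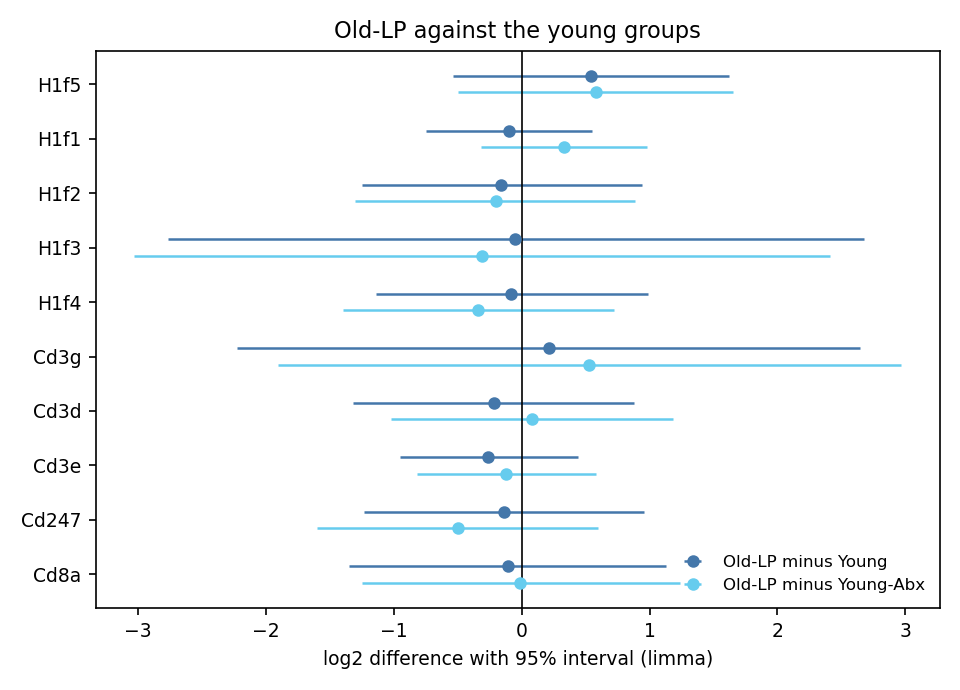
Log2 difference of Old-LP from Young (dark blue) and from Young-Abx (light blue) with its 95% interval from limma, for H1f5 and 4 other linker histones and for Cd3g and other T cell genes. The fit did not model the letter, and all intervals include 0.

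The linker histone list has 10 genes, each with 1 probe, and 9 are in the deposited table. Of these, 2 were lowest in Old on every letter, H1f5 and H1f1. Without H1f5, which the rule chose, the count was 1 of 8, beside 5.15% of all probes. H1f1 read 7.30, 7.08 and 7.40 in Young and 6.78, 6.89 and 6.24 in Old. All Old arrays of H1f1 lay below all its other arrays, as in 1.33% of all probes, which those of H1f5 did not. On Old letter C its 6.24 lay below the 6.46 of Cd3g, which was near background there. H1f4, a replication-dependent linker histone like H1f5, read 11.37, 11.00 and 11.04 in Young. In Old it read 11.09, 11.79 and 9.64, so that letter B was above Young and letter C below. H1f2 was higher in Old than in Young on all letters, with 10.13, 10.27 and 11.55 against 10.04, 10.02 and 11.09. In the limma fit 7 of the 10 genes, H1f5 among them, lay below 0 in Old against Young, with a median of -0.29 beside 0.01 over all probes. Linker histone genes are alike in sequence, and how far their probes share transcripts was not tested. In the limma fit 0 of 10 linker histones were called in Old-LP against Young, beside 0.0% of all probes. Their median difference was -0.05 beside 0.00 over all probes.

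On chromosome 13, H1f5 lies within a cluster of histone genes. Of its 10 nearest genes by order, 9 had a probe in the deposited table and all 9 code for core histones. Old was lowest on every letter for H2ac15, H2ac22 and H2ac23, with smallest differences of 0.15, 0.25 and 0.32, and not for the H2B, H3 and H4 genes there, with values from -0.97 to -0.16. H2ac23, an H2A gene, read 14.64, 14.55 and 14.59 in Young and 13.77, 13.76 and 12.97 in Old. Over all 38 measured core histone genes of the replication-dependent kind, 13 were lowest in Old on every letter, beside 5.15% of all probes. Apart from H2bc21, H2bc4 and H3c8, these were all H2A genes. How far the probes of core histone genes share transcripts was not tested either. These lists were made after values were seen. Of genes fixed earlier for DNA replication and S phase, 12 of 36 were lowest in Old on every letter. Of those for mitosis and chromosome segregation, 16 of 37 were, both beside the same 5.15%. None of the 36 and none of the 37 was called in Old-LP against Young, beside 0.0% of all probes, with medians of -0.02 in both.

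Cd3g lies next to Cd3d and Cd3e on chromosome 9. Both probes of Cd3d were lowest in Old on every letter, with smallest differences of 0.64 and 0.60. The brighter one read 12.68, 12.46 and 14.00 in Young and 12.36, 12.19 and 13.90 in Young-Abx. It read 11.67, 11.59 and 11.05 in Old and 12.62, 12.50 and 13.60 in Old-LP. Cd3e at its brighter probe read 11.10, 11.18 and 11.90 in Young and 10.52, 10.49 and 10.18 in Old. Its dimmer probe was not lowest in Old on every letter, with a smallest difference of -0.09. At the brighter probes all Old arrays of Cd3d and Cd3e lay below all other arrays, as in 1.33% of all probes, which Cd3g itself did not reach. On letter C, Cd3d was brighter than on A and B in Young while Cd3g was dimmer. The zeta chain gene Cd247 read 10.57, 11.62 and 11.32 in Young and 11.34, 12.42 and 11.06 in Old at its brightest probe. Its 3 probes disagreed, with smallest differences of -1.17 at the brightest and of -0.84 and 0.05 at the others, each well above background on 8 arrays.

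A list of 26 genes of the T cell receptor complex, its signalling and the T lineage was drawn up after values were seen. Of these, 12 were lowest in Old on every letter, or 11 of 25 without Cd3g, beside 5.15% of all probes. All Old arrays lay below all others in 7, beside 1.33% of all probes. Besides Cd3d, Cd3e and Cd8a, these were the kinase gene Zap70, Trat1, Thy1 and Themis. Zap70, which relays the receptor signal, read 11.74, 11.79 and 12.69 in Young and 10.67, 11.00 and 10.14 in Old. Not all genes of the list did so: Lat, an adaptor of the same pathway, read 8.95, 8.95 and 7.71 in Young and 10.11, 10.27 and 8.77 in Old. Cd4 read 9.37, 9.35 and 9.58 in Young and 9.22, 9.46 and 9.76 in Old. In Old-LP against Young 0 of 26 genes were called, beside 0.0% of all probes, and against Young-Abx 0 of 26, beside 0.163%. The medians were -0.14 and -0.15, beside 0.00 and 0.03 over all probes.

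**Figure D4:**
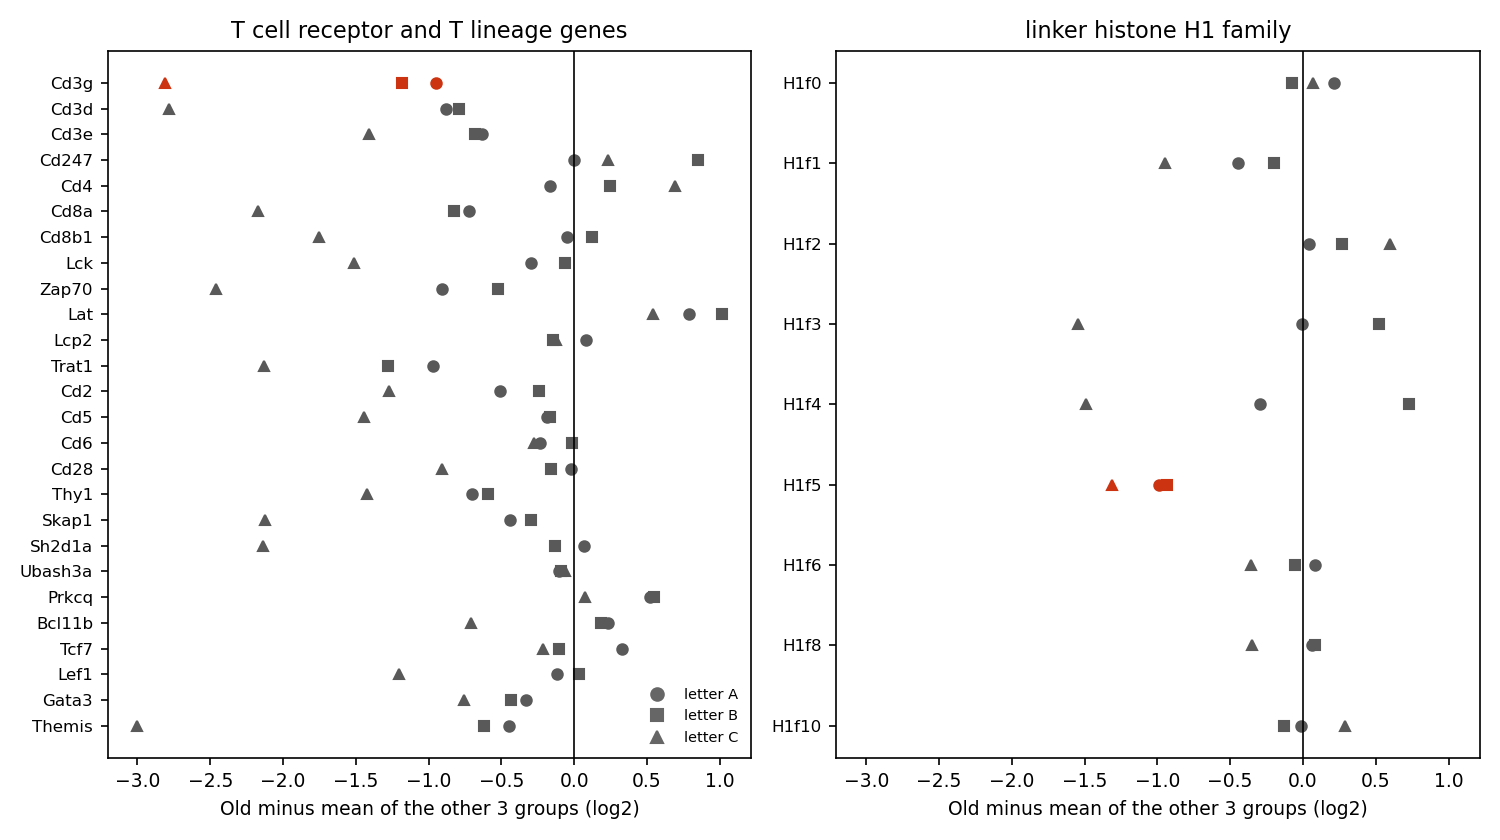
Old minus the mean of the other 3 groups on the deposited log2 scale (x axis) for each gene at its brightest probe, by letter (symbol). The members are red. Cd3g lies with Cd3d, Cd3e and other T cell genes left of 0, and H1f5 lies left of 0 on every letter while H1f2, H1f3 and H1f4 do not.

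Of 5 T cell markers fixed earlier, Cd3g among them, 3 were lowest in Old on every letter (Cd3g, Cd8a and Cd3e), or 2 of 4 without Cd3g, which the rule chose. The share over all probes was 5.15%, for this list and those that follow. The log2 of the summed signal of all 5 was 13.21 to 13.25 in Young, 12.92 to 13.45 in Young-Abx, 11.89 to 12.65 in Old and 13.02 to 13.10 in Old-LP. Without Cd3g it was 12.91 to 13.18 in Young, 12.68 to 13.37 in Young-Abx, 11.86 to 12.50 in Old and 12.72 to 12.95 in Old-LP. All 5 were well above background on at least 1 array of every group. Of 4 NK cell markers, 2 were lowest in Old on every letter (Gzma and Klrb1c), and Ncr1 and Eomes were not. The summed signals were 14.16 to 15.44 in Young and 13.22 to 14.57 in Old. Gzma made up most of these sums, with 14.17, 14.09 and 15.41 in Young and 13.18, 13.10 and 14.54 in Old. Of 22 cytotoxic lymphocyte genes listed after values were seen, Gzma among them, 10 were lowest in Old on every letter. The part of such cells in the Cd3g values was not tested. The dendritic cell markers had 0 of 9 genes lowest in Old on every letter, with summed signals of 18.2 to 18.59 in Young and 18.5 to 18.7 in Old. The same count was 0 of 6 neutrophil, 0 of 6 megakaryocyte and erythroid and 0 of 4 B cell markers, 1 of 6 macrophage markers and 1 of 6 mast cell and basophil markers. For some of these lists the summed signal was lower in Old than in Young on letters A and B and higher on C. The neutrophil markers summed to 14.35, 14.30 and 14.20 in Young and 13.01, 12.98 and 15.65 in Old. The B cell markers summed to 11.25, 11.26 and 12.11 in Young and 10.30, 10.34 and 13.62 in Old. The mast cell and basophil markers summed to 14.30, 14.32 and 15.54 in Young and 13.61, 13.51 and 15.82 in Old. The part of these cells in the values of the members was not tested either.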

How the data were processed

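Groups, letters and ages were taken from the labels, and slides from the scan names. The authors deposited spot intensity from Feature Extraction (12.1.1.1 per the file headers, 10.5 per the labels), without normalization between arrays, and a table of log2 values for 46302 probes, which matched the quantile normalized log2 of the median signal. The members were chosen on that log2 table, as the rule asks. Tests used log2 of the processed intensity: 1068 outlier readings were set to missing, arrays were quantile normalized, and 59305 spots were averaged to 56605 probes. R 4.3.3 with limma 3.58.1 fitted 1 mean per group to all 12 arrays, with Benjamini-Hochberg adjustment over all probes (adjusted p at most 0.05 and absolute log2 difference at least 0.5, two-sided). Accessions named 35405 probes through RefSeq, and a gene was read at its brightest probe. The rule was checked on made-up values. The fit of Old-LP against Young was tested on simulated data with the same spread for every probe and no letter or slide effect. It does not show how the fit does with the spread of these arrays. The number of arrays limits precision.

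The members, lists and tests were chosen with earlier results of these data known. The naming rule took members with 1 symbol and signal well above background in all Young, Young-Abx and Old-LP arrays, ranked by their smallest difference, up to 25. As a check of pairing, deviations from the group means had an r of 0.613 to 0.884 between arrays of the same letter, 0.601 to 0.798 between A and B, and -0.858 to -0.635 between C and the others, so the letters set only C apart. Alternatives were other normalizations, the authors' table, filters, blocks for letter and slide, an intensity trend, 2 groups alone, and each array left out. One gene of a list made after values were seen is not reported here.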

Additional observations from a re-analysis of the deposited data

How the results depend on the processing

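Members numbered 2 on the deposited table. The same rule gave 21 probes on quantile normalized processed intensity, 8 on intensity shifted by the 75th percentile, 16 at a limit of 0.5, 0 at a limit of 1.0, and 17 without the Young-Abx window. Leaving out 1 letter gave 1 to 11 probes. Both members were among the probes chosen under all of these except the limit of 1.0, which kept neither, and leaving out letter C, which kept H1f5 only. The normexp correction gave 3 probes, both members included. The cause of these changes was not tested. With the letter as a replicate block, 0 of 2 members were called in Old-LP against Young and 0 of 2 against Young-Abx. The estimates for H1f5 were 0.54 (SE 0.19) and 0.58 (SE 0.19, limma adjusted p = 0.432), and no setting called a member. Over 22 settings Old-LP minus Young was 0.21 to 0.75 for H1f5 and -0.43 to 0.60 for Cd3g, and Old-LP minus Young-Abx was 0.22 to 0.80 and 0.10 to 0.92, with the lowest limma adjusted p of 0.0532 for Cd3g on slide 1 only. The shift by the 75th percentile moved the median of all probes in Old-LP against Young-Abx to 0.1549. The dim C arrays limit the Cd3g values, and the letter C difference between young and old cells cannot be told apart from the slide.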
